A study of Mus musculus with 39 samples.

Results

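A set of 9 genes for testis-specific and replacement histones was followed through the stages of mouse spermatogenesis, out of 32285 genes in the single-cell gene table. They were chosen by symbol and not by a rule on their values, though with earlier results of these data known. Each symbol occurred once in the table. Of these, 3 encode linker histones of the testis: Hist1h1t, H1fnt and Hils1. Hist1h2aa and Hist1h2ba encode the testis forms of H2A and H2B. The other 4, H2afx, H2afz, H3f3a and H3f3b, encode replacement variants made in most cell types. Droplet single-cell libraries with 3' UMI counts had been made from dissociated whole testis, 1 from a control with the genotype Kdm6a fl/y; Cre- and 1 from a conditional knockout (cKO), Kdm6a fl/y; Ddx4-Cre+. Both carried the floxed allele of the X-linked histone demethylase gene Kdm6a. Ddx4 is a germ-cell gene, so the somatic cells of the cKO testis should keep Kdm6a. Promoters of the same genes were looked up in peak lists from sorted cKIT+ spermatogonia of both genotypes, with 2 control and 3 cKO libraries each for ATAC-seq (open chromatin) and for CUT&Tag of H3K27me3, and 1 control IgG library. H3K27me3 is the repressive histone mark that KDM6A can remove. With 1 single-cell library per genotype there is no replicate of either genotype: no test of genotype was possible, and the 95% intervals below are exact (Poisson for levels, binomial for shares and for ratios) and cover counting error only.

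As background, chromatin is rebuilt several times while a spermatogonium becomes a sperm. Testis forms of H1, H2A and H2B join the somatic forms around meiosis, H3.3 replaces H3 on the sex chromosomes and at active genes, and spermatids load their own linker histones before transition proteins and protamines take over. Messenger RNAs of replication-dependent histones end in a stem-loop in place of a poly(A) tail, so a method that captures poly(A) may count such transcripts only in part, and UMI levels are compared here across cells for 1 gene. Where 2 genes are set as a pair, what is read is how their share moves across stages and libraries, not which gene is higher.

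The 8 members with a RefSeq start site differ in their promoters. Hist1h2aa and Hist1h2ba (H2ac1 and H2bc1 in RefSeq) are neighbours on chromosome 13 that are read away from each other, with 280 bases between the 2 genes, so 220 bases of their 300-base promoter windows are the same. Sequences are from RefSeq, build GRCm38.p6, and run 5' to 3' on the strand of the gene. The 250 bases before the start are shown for the pair of genes with 1 shared promoter and for the linker histone genes, which contrast with it. Capitals mark matches on either strand to TATAAA (the TATA box), to CCAAT (the CCAAT box), to ATGCAAAT (the octamer of histone promoters) and to GGGCGG (the GC box).

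Hist1h2aa, shared with Hist1h2ba, chr13:23934187-23934436, plus strand: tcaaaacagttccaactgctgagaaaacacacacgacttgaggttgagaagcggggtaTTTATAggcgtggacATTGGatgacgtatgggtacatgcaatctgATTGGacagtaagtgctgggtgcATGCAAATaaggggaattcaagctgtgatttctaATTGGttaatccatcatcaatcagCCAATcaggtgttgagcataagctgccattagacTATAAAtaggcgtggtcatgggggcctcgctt
Hist1h1t, chr13:23695561-23695810, plus strand: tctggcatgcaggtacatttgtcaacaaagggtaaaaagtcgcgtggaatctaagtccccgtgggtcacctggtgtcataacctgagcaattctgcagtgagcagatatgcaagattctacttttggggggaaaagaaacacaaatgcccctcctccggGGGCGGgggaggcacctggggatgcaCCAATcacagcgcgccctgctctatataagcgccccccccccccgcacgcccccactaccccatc
H1fnt, chr15:98257308-98257557, minus strand: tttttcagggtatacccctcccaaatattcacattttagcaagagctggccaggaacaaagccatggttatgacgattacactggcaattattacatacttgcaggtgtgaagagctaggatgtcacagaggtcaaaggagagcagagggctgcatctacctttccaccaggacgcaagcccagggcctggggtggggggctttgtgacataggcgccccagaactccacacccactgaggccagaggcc
Hils1, chr11:94967343-94967592, plus strand: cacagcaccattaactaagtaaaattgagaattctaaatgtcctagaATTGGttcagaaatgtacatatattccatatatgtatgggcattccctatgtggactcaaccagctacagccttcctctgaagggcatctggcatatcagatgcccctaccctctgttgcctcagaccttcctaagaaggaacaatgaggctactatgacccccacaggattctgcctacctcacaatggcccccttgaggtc

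The shared promoter held a TATAAA for each gene, which began at position -32 of Hist1h2aa and at position -94 of Hist1h2ba, 4 CCAAT matches and 1 octamer, where position 1 is the start site of each RefSeq window. The window of H3f3b (upstream bases chr11:116024505-116024754) starts inside the longer annotated span of the gene, which reaches 116026039 on the minus strand, so its positions are counted from that inner start. H3f3b carried the same 3 motifs, with TATAAA from -27, 4 CCAAT matches from -214 to -93 and an octamer from -74 to -67. The octamers of the pair and of H3f3b are compared below with 11 bases on each side.

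Hist1h2aa and Hist1h2ba, chr13:23934302-23934331, plus strand: gtgctgggtgcATGCAAATaaggggaattc
H3f3b, chr11:116024560-116024589, minus strand: gtcgttggtgtATGCAAATcagggttctgt

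Of 17492 promoters of protein-coding genes, 1.71% held ATGCAAAT, 13.3% TATAAA, 39.0% CCAAT and 46.3% GGGCGG on either strand. Among the 8 members the counts were 3, 3, 7 and 3, with the shared promoter counted once for each of its genes. TGACGTCA was in no member window and in 2.34% of all. The Hils1 window held 1 CCAAT on the opposite strand, and the H1fnt window held no match to any of the motifs searched. H3f3a and H2afz had GC-rich windows, with 74.0% and 71.3% G or C against a median of 56.3% over all promoters. A match of letters is a description of sequence and not a measured binding site.

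In the single-cell libraries, 11252 control and 8520 cKO barcodes held at least 3000 UMIs, with medians of 8410.5 and 8499 UMIs, and 30 of those barcodes occurred in both libraries. Cells were placed by marker genes that include none of the members into spermatogonia (152 control and 142 cKO cells), meiotic entry or preleptotene (107 and 30), leptotene to zygotene (646 and 350), pachytene and later spermatocytes (1966 and 1404), round spermatids (1613 and 1661) and elongating spermatids (5310 and 3786). Leydig-gated cells (98 and 95) served to read the germ-cell RNA that floats free in the suspension, which was estimated at 34.1% of their UMIs in control and 37.9% in cKO. Levels are given as CPM, the UMIs of a gene scaled to the sum of all UMIs of the cells of a stage. A level called under free RNA lies below the CPM of free RNA alone. Cells with such a level may still hold transcripts of their own. Kdm6a itself had 81 UMIs in control and 5 in cKO cells of leptotene to zygotene, 29 and 1 at meiotic entry, and 18 and 8 in spermatogonia. As levels these were 17.5 and 1.91, 47.8 and 5.25, and 15.5 and 8.72 CPM, and in spermatogonia the interval of the log2 ratio, -2.24 to 0.44, included 0. Leydig-gated cells held 12 and 7 Kdm6a UMIs. Tags from the 3' end need not cover the deleted exons, so these counts check the labels only in part.

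Of the 9 members, 8 had their highest level in the same stage in both libraries, as did 84.3% of 7197 genes that reached 50 CPM in some stage. In 7 of the 9 the highest stage exceeded the lowest at least 10-fold in both libraries, against 47.5% of those genes. In both libraries 1 member was highest at meiotic entry (14.7% of genes), 3 in leptotene to zygotene (12.0%), 1 in pachytene and later cells (18.3%), 1 in round (15.8%) and 2 in elongating spermatids (10.0%). The exceptions were H2afz (9.25-fold in control, 8.83-fold in cKO) and H3f3a (3.60-fold and 4.07-fold), replacement variants made in nearly every cell. Both had their lowest level in elongating spermatids, under free RNA. Free RNA was also subtracted, in every stage at the share of Leydig-gated cells. H3f3a then went from 1417 CPM (control) and 1585 CPM (cKO) in round spermatids to 134 and 70.9 CPM, or 10.6-fold and 22.3-fold. H2afz went from 1761 and 1939 CPM in pachytene and later cells to 0. There the amount subtracted exceeded its level in both libraries, so the Leydig share was too large for elongating spermatids. The share in that stage was not measured, so whether either gene passes 10-fold is not settled.

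**Figure D1:**
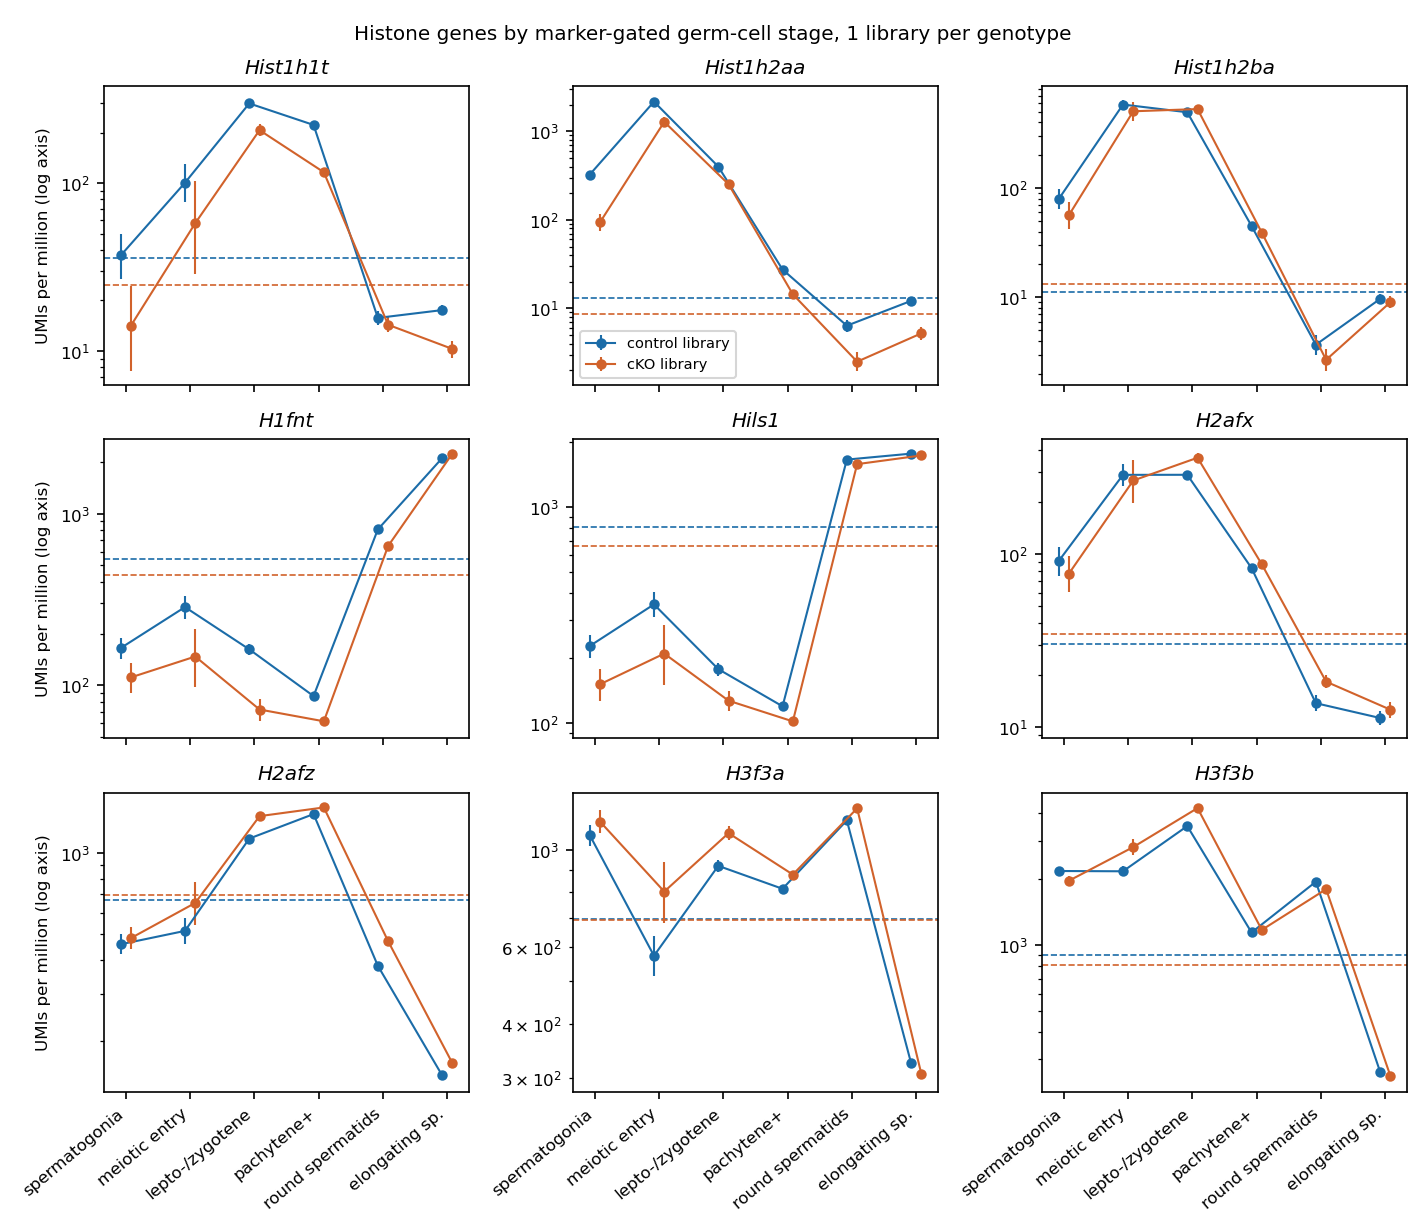
Level in CPM (log axis, a different range in each panel) of the 9 genes in the 6 marker-gated stages, with the control library in blue and the cKO library in orange; bars are 95% Poisson intervals and dashed lines give the level in free RNA (barcodes of at most 100 UMIs). Hist1h2aa stands highest at meiotic entry, Hist1h1t in leptotene to zygotene, and H1fnt and Hils1 in spermatids.

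Hist1h1t, the linker histone H1t of spermatocytes, was highest in leptotene to zygotene, at 299 CPM (283 to 315) in control and 207 CPM (190 to 225) in cKO. Pachytene and later spermatocytes followed with 222 and 116 CPM. Spermatids of both kinds had between 10.3 and 17.5 CPM, below the free-RNA level of 35.8 in control and 24.8 in cKO. The order of the first 2 stages depended on the gate. When whole clusters were staged, Hist1h1t was highest in pachytene and later cells in both libraries. Its highest cluster, number 6, had 568 and 331 CPM and held 423 cells gated to pachytene and later, 293 to leptotene to zygotene and 651 ungated cells. Clusters 13 and 15, gated mainly to leptotene to zygotene, had 80.6 and 39.1 CPM and 167 and 107 CPM.

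H1fnt encodes H1T2, a linker histone found at the tip of the spermatid nucleus. It had 2106 CPM (2092 to 2120) in control and 2240 CPM (2223 to 2258) in cKO elongating spermatids. Round spermatids had 809 and 648 CPM, so the elongating cells were the higher in both. Hils1, a linker-like histone of spermatids, had a similar level over the whole round and elongating gates, with 1657 and 1766 CPM in control and 1579 and 1732 CPM in cKO. In each library the intervals of these neighbouring stages did not overlap. Within the gates Hils1 varied widely. Control clusters gated mainly to elongating spermatids ran from 341 CPM (cluster 2) to 3333 CPM (cluster 8). Those gated mainly to round spermatids ran from 621 CPM (cluster 9) to 2250 CPM (cluster 10). In spermatogonia and spermatocytes both genes stayed below their free-RNA level, at 547 and 437 CPM for H1fnt and 810 and 659 CPM for Hils1, and their counts there are read as background. With free RNA subtracted at the Leydig share, nothing was left in these stages except at meiotic entry in control, with 150 CPM of H1fnt and 119 CPM of Hils1. Where nothing was left, the amount subtracted exceeded the level. The Leydig share was thus too large there, and these remainders are no separate sign of background. The share of H1fnt among H1fnt and Hils1 UMIs went from 32.8% (32.4 to 33.2) in control round spermatids to 54.4% (54.2 to 54.6) in elongating ones, and from 29.1% to 56.4% in cKO. Taken over whole gates, H1fnt thus gained on Hils1 between the 2 spermatid stages in both libraries, and the part of the mix of cells within each gate was not tested.

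Hist1h2aa, the testis form of H2A, had 2164 CPM (2049 to 2285) at meiotic entry in control and 1281 CPM (1125 to 1452) in cKO. Leptotene to zygotene followed with 400 and 253 CPM, spermatogonia with 324 and 93.7 CPM, and pachytene and later spermatocytes with 27.5 and 14.4 CPM. In this order, which spermatids closed, no intervals of neighbouring stages overlapped in either library. Thinned to 3000 UMIs per cell, 86.9% of control and 76.7% of cKO cells at meiotic entry held a Hist1h2aa UMI (unthinned 90.7% and 80.0%), against 2.04% and 4.21% of Leydig-gated cells, whose median depths were 8210.5 and 6705 UMIs beside 4522 and 5200.5 at meiotic entry.

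Hist1h2ba, the testis form of H2B from the other side of the promoter, had a flatter course. It had 581 CPM (522 to 645) at meiotic entry and 494 CPM (474 to 514) in leptotene to zygotene of control, and 504 CPM (408 to 615) and 528 CPM (500 to 556) in cKO. The cKO values overlapped, so its highest stage in that library was not settled by counting error. By pachytene it was down to 45.0 and 39.1 CPM.

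The balance of the 2 genes therefore shifted as meiosis began. Hist1h2aa held 78.8% (76.8 to 80.8) of the pair's UMIs at meiotic entry in control, 44.8% (43.2 to 46.3) in leptotene to zygotene and 37.9% (36.2 to 39.6) in pachytene and later cells. In cKO the shares were 71.8% (66.7 to 76.5), 32.4% (30.4 to 34.5) and 27% (24.7 to 29.3). In spermatogonia they were 80.3% (76.4 to 83.8) and 62.3% (53.7 to 70.4). In these 4 stages the cKO share was the lower, and its interval did not meet that of control. At meiotic entry, with 30 cKO cells, the limits of 76.5 and 76.8 nearly met. The intervals hold counting error of 1 library per genotype. How often the shares of other gene pairs stand apart in this way was not computed.

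H2afx encodes H2A.X, which is phosphorylated at DNA breaks and on the silenced sex chromosomes. It had 289 CPM in control both at meiotic entry (248 to 335) and in leptotene to zygotene (274 to 305), and 268 CPM (199 to 352) and 363 CPM (340 to 387) in cKO, so these stages overlapped in both libraries. Pachytene and later cells had 83.2 and 87.5 CPM, and spermatids had 18.3 CPM or less in both libraries, below the free-RNA levels of 30.3 and 34.4 CPM.

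H2afz encodes H2A.Z, a variant found at gene starts. It went from 458 CPM in control spermatogonia (420 to 498) and 513 CPM at meiotic entry (458 to 573), which overlapped, to 1126 CPM in leptotene to zygotene and 1387 CPM in pachytene and later cells. The cKO values were 483, 651, 1363 and 1468 CPM. Round spermatids had 381 and 470 CPM, and elongating spermatids had 150 and 166 CPM, all under the free-RNA levels of 665 and 697 CPM. The values in spermatogonia and at meiotic entry lay under free RNA too, so only leptotene to zygotene and pachytene and later cells exceeded it. With free RNA subtracted at the Leydig share, 351 and 352 CPM were left in spermatogonia and 435 and 623 CPM at meiotic entry. Round spermatids kept 234 and 331 CPM, so these levels are not read as background alone.

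H3f3a and H3f3b encode the same protein, H3.3, and followed different courses. H3f3b was highest in leptotene to zygotene, with 3497 CPM (3443 to 3551) in control and 4225 CPM (4147 to 4304) in cKO, had 1141 and 1172 CPM in pachytene and later cells, and stood at 1946 and 1800 CPM in round spermatids. H3f3a varied less, with its highest values in round spermatids (1170 and 1246 CPM) and in spermatogonia (1083 and 1162 CPM), which overlapped in cKO, and its lowest in elongating spermatids (325 and 306 CPM). H3f3a gave 20.8% (20.3 to 21.4) of the H3.3 UMIs in control leptotene to zygotene, 41.7% (41.3 to 42.0) in pachytene and later cells and 55.2% (54.6 to 55.8) in elongating spermatids. The cKO shares were 20.6%, 42.8% and 54.9%. H3f3b in elongating spermatids, at 263 and 252 CPM, was below its free-RNA levels of 904 and 814 CPM, and so was H3f3a, whose free-RNA levels were 693 and 692 CPM, so the last share may carry background.

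**Figure D2:**
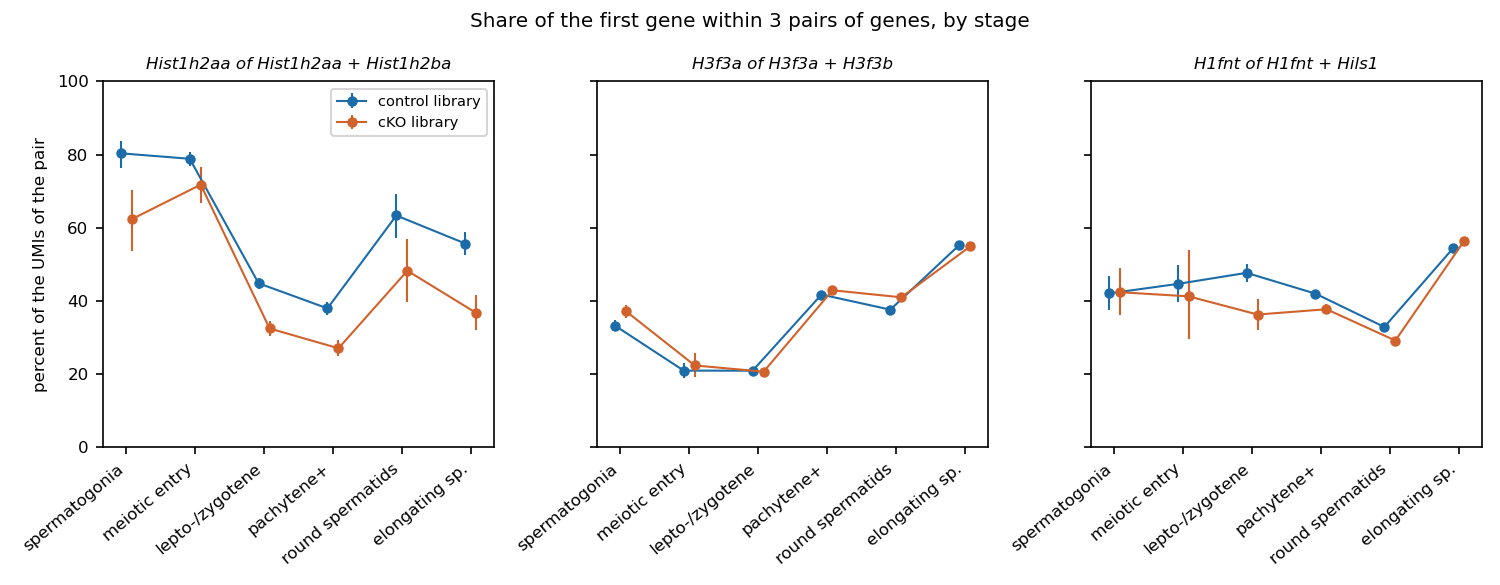
Share of the first gene in the UMIs of each of 3 pairs (percent, 0 to 100) by stage, control library in blue and cKO library in orange, with exact 95% binomial intervals. The Hist1h2aa share goes from 78.8% to 37.9% between meiotic entry and pachytene in control and lies lower in cKO, while the H3f3a share is lowest before pachytene and highest in elongating spermatids in both libraries.

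For each member the genes most like it were sought by Pearson's r of log2(CPM + 10) over 36 points (18 clusters in each of 2 libraries, which share those libraries and their free RNA), among 8297 genes. Hist1h2ba came closest to Tex12 (r = 0.98), a gene of the synaptonemal complex, Iqcb1 (0.98) and Topbp1 (0.97), a DNA damage checkpoint gene. Hist1h2aa came closest to 4930447C04Rik, Utp20 and Ythdc2 (each 0.97), the last a gene needed to enter meiosis. Among the members themselves, Hist1h2aa and Hist1h2ba had r = 0.94, H2afx and Hist1h2ba 0.90, H1fnt and Hils1 0.83, and H3f3a and H3f3b 0.80. The remaining closest genes were 4930579G24Rik, Tdrd5 and 9330102E08Rik for Hist1h1t (0.95 to 0.96), Tctex1d1, Smim23 and Slfnl1 for H1fnt (0.99 to 1.00), Tmco2, Cypt1 and Spag4 for Hils1 (0.99), Zc3h6, Mbtd1 and Fam98b for H2afx (0.98), Krcc1, Cfap20 and Srp14 for H2afz (0.98 to 0.99), Ndufa5, Bud31 and Ndufaf2 for H3f3a (0.94 to 0.95), and Gfpt1, Mta3 and Psmg2 for H3f3b (0.93). These r values are descriptions.

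Between the libraries, Hist1h2aa and Hist1h1t stood lower in cKO than the other members did. Over all barcodes of at least 3000 UMIs, Hist1h2aa had 58.2 CPM (7731 UMIs) in control and 24.9 CPM (2467 UMIs) in cKO, which is -1.22 (-1.29 to -1.16) on the log2 scale. Hist1h1t had 119 and 65.0 CPM, or -0.87 (-0.92 to -0.83). The other 7 lay between -0.25 for Hist1h2ba and 0.18 for H3f3a. These pooled values also move with how many cells of each stage a library holds, so the ratios were taken within stages.

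In spermatogonia, 2 of 9 members were at least 2-fold lower in cKO and none was 2-fold higher, while 1.61% of 6633 genes with at least 50 UMIs were 2-fold lower and 0.211% higher. Hist1h2aa had a log2 ratio of -1.79 (-2.15 to -1.45), from 376 and 86 UMIs. Hist1h1t had -1.39 (-2.41 to -0.47), from 43 and 13 UMIs, with the cKO level under that of free RNA. With free RNA subtracted its levels were 37.7 and 7.65 CPM, or -2.30, and with the higher UMI minimum the ratio was -1.92. The median of the 9 was -0.49, and that of all genes -0.09.

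At meiotic entry, where 7.56% of 3623 genes were 2-fold lower in cKO and 1.3% higher, no member was past 2-fold. Hist1h2aa had -0.76 (-0.96 to -0.56), from 1312 and 244 UMIs, and Hist1h1t -0.80 (-1.88 to 0.14). H3f3a and H3f3b stood higher in cKO, at 0.49 (0.20 to 0.77) and 0.37 (0.22 to 0.51). For H3f3a the control level, 572 CPM, lay under free RNA (693 CPM), and with free RNA subtracted its levels were 510 and 871 CPM. Only 30 cKO cells carried this stage, and 3 members passed 2-fold under some alternatives. Hist1h1t had -1.01 to -1.11 with a lower or higher UMI minimum, with limits on genes and mitochondrial UMIs, and without called doublets. H1fnt reached -1.79 and Hils1 -1.11 with the higher UMI minimum, and H1fnt -1.03 and -1.04 with the lower minimum and with those limits. H1fnt had 285 and 147 CPM there, under its free-RNA levels of 547 and 437 CPM.

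In leptotene to zygotene, 1 of 9 members was 2-fold lower and none higher, beside 3.55% and 0.127% of 9446 genes. That member was H1fnt, at -1.16, with both levels (162 and 72.2 CPM) far under free RNA, where the libraries themselves differed by -0.33. By cluster stages H1fnt stood at -0.42, short of 2-fold. It had 0.29 (0.14 to 0.43) in cluster 13, above free RNA in both libraries, and -1.01 (-1.29 to -0.75) in cluster 15, under it. Hist1h2aa had -0.66 (-0.79 to -0.53) and Hist1h1t -0.53 (-0.68 to -0.39). Hist1h2ba, at 0.10, had a counting interval that included 0. H2afx, H2afz, H3f3a and H3f3b were higher in cKO by 0.25 to 0.33 on the log2 scale. By the median of the clusters gated mainly to this stage, however, H2afx stood at -0.13, H3f3a at -0.01 and Hist1h2ba at -0.24, and H2afx had -0.57 (-0.99 to -0.18) in cluster 13 and 0.31 (0.14 to 0.47) in cluster 15. Cluster 13 held 482 control and 121 cKO cells, and cluster 15 held 304 and 214. Hist1h2aa had 946 and 483 CPM in cluster 13 and 405 and 302 CPM in cluster 15. Markers of meiotic entry summed to 82.4 CPM in control and 42.8 CPM in cKO within this gate. Also lower in cKO were its own markers (2139 and 1797 CPM) and those of round spermatids (388 and 300 CPM). Those of spermatogonia (328 and 355 CPM) and of pachytene and later cells (950 and 987 CPM) stood higher in cKO. The part of these markers and of the cluster make-up in the ratios was not tested.

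In pachytene and later spermatocytes no member was past 2-fold, beside 0.804% of 14053 genes lower and 0.0712% higher. Hist1h1t, at -0.94 (-0.99 to -0.88), and Hist1h2aa, at -0.93 (-1.09 to -0.76), came just short of it. The 9456 control and 3285 cKO UMIs of Hist1h1t made this its most precise ratio. The other 7 members lay between -0.49 and 0.11. Within this gate, markers of meiotic entry summed to 23.7 and 20.1 CPM and those of leptotene to zygotene to 294 and 242 CPM. Markers of pachytene and later cells had 2061 and 1953 CPM, and those of elongating spermatids 7822 and 6480 CPM. Those of spermatogonia (872 and 928 CPM) and round spermatids (336 and 351 CPM) stood higher in cKO. The part of these markers in the ratios was not tested.

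In round spermatids 1 of 9 members was 2-fold lower, beside 1.12% of 13969 genes lower and 0.279% higher, and in elongating spermatids 1 of 9, beside 1.06% and 0.106% of 14105. Both were Hist1h2aa, at -1.35 (-1.78 to -0.93) and -1.22 (-1.49 to -0.95). In elongating spermatids the value fell short of 2-fold with the higher UMI minimum (-0.98) and reached -1.91 with free RNA subtracted, -2.10 by cluster stages and -2.21 without called doublets. Hist1h1t in elongating spermatids, at -0.77, passed 2-fold by cluster stages (-1.08), without called doublets (-1.24) and with free RNA subtracted (-2.54), and Hist1h2ba in round spermatids, at -0.46, by cluster stages (-1.08) and without called doublets (-1.19). The Hist1h1t value in round spermatids, -0.14, turned to 0.57 with free RNA subtracted. That subtraction left Hist1h1t 8.045 CPM in control and 1.39 CPM in cKO elongating spermatids, and 5.34 and 7.90 CPM in round ones. Its -2.54 and 0.57 therefore rest on small remainders, at a share not measured in spermatids. The levels of Hist1h2aa were 6.37 and 2.50 CPM in round and 12.2 and 5.23 CPM in elongating spermatids, each under the free-RNA level of its library (13.05 and 8.67 CPM), which differed by -0.59. The median of all genes in elongating spermatids was -0.11, and relative to it Hist1h2aa stood at -1.11 and H1fnt at 0.19 in place of 0.09. The sign of 4 members depends on that scaling there: Hist1h2ba went from -0.10 to 0.01, Hils1 from -0.03 to 0.08, H3f3a from -0.08 to 0.02 and H3f3b from -0.06 to 0.04. In round spermatids H1fnt had -0.32 and Hils1 -0.07. Hils1 stood at 0.03 with free RNA subtracted and between 0.00 and 0.13 in the 3 clusters gated mainly to round spermatids. H1fnt kept its sign over 9 alternatives (-0.38 to -0.18) and ran from -0.40 to 0.03 in those clusters, the last with an interval that included 0. Markers of elongating spermatids, the stage where both genes are highest, summed to 28652 CPM in control and 20947 CPM in cKO within the round gate, and their part in these ratios was not tested.

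**Figure D3:**
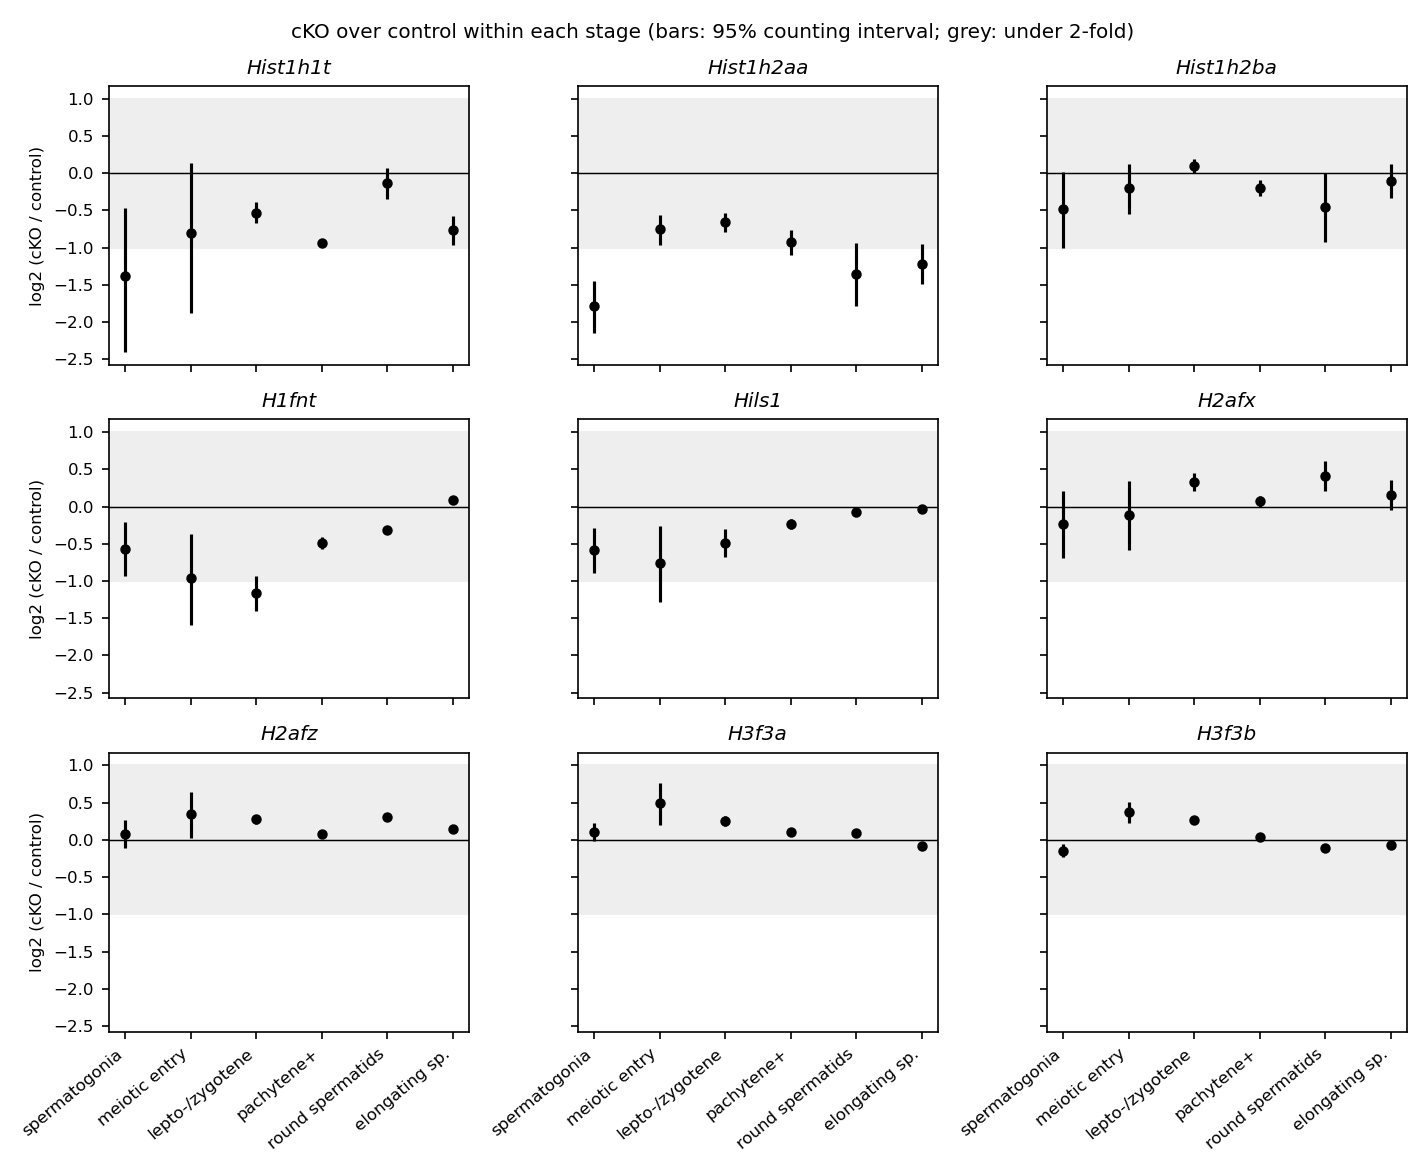
Log2 ratio of cKO to control for each gene in the 6 stages, with exact 95% counting intervals; the grey band marks differences under 2-fold. Hist1h2aa lies below 0 in all 6 stages with intervals that exclude 0, and Hist1h1t lies below 0 in all 6, with intervals that exclude 0 in 4. Free RNA is not subtracted from these values.

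The same ratios were taken within 18 Leiden clusters (at least 50 cells in each library) that were built without the 9 genes, an alternative chosen after seeing the data. Hist1h1t and Hist1h2aa were lower in cKO in 18 of 18 clusters, as were 6.12% of 8011 genes. Free RNA reaches every cluster, so the clusters are not independent of each other. Hist1h2aa exceeded its level in free RNA in both libraries in 7 clusters, where the ratio ran from -1.87 to -0.42 with a median of -0.97, and all 7 intervals lay below 0. The -1.87 was that of cluster 17, gated mainly to Sertoli cells, and the other 6 ran from -1.36 to -0.42. For Hist1h1t there were 5 such clusters, from -1.16 to -0.65, again with every interval below 0. Hist1h2ba exceeded free RNA in both libraries in 7 clusters and was lower in 6 of them, with 4 intervals below 0, and stood at 0.09 in the cluster where it was highest. Without cluster 17 (-1.21) it was lower in 5 of 6, with 3 intervals below 0. H2afz and H3f3a had no interval below 0 in such clusters (6 and 9) and 5 and 8 intervals above 0. For none of the members was the share of all genes with such intervals computed. With many UMIs an interval can exclude 0 at a small difference, as H3f3a ran only from 0.07 to 0.20. The counts of intervals are therefore descriptions. Hils1 was lower in 0 of 7 such clusters, with 5 intervals above 0, and H1fnt in 1 of 9, with 5 above. Over all 18 clusters Hils1 was lower in 8, with 6 intervals below 0 and 7 above. H1fnt was lower in 10 of the 18, with 7 intervals below 0 and 5 above. Among the gated stages, only round and elongating spermatids exceeded free RNA for these 2 genes. The stage ratios there were -0.07 and -0.03 for Hils1 and -0.32 and 0.09 for H1fnt. Among the clusters, number 13, gated mainly to leptotene to zygotene, exceeded it for H1fnt too, at 631 and 769 CPM, with 0.29 (0.14 to 0.43).

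**Figure D4:**
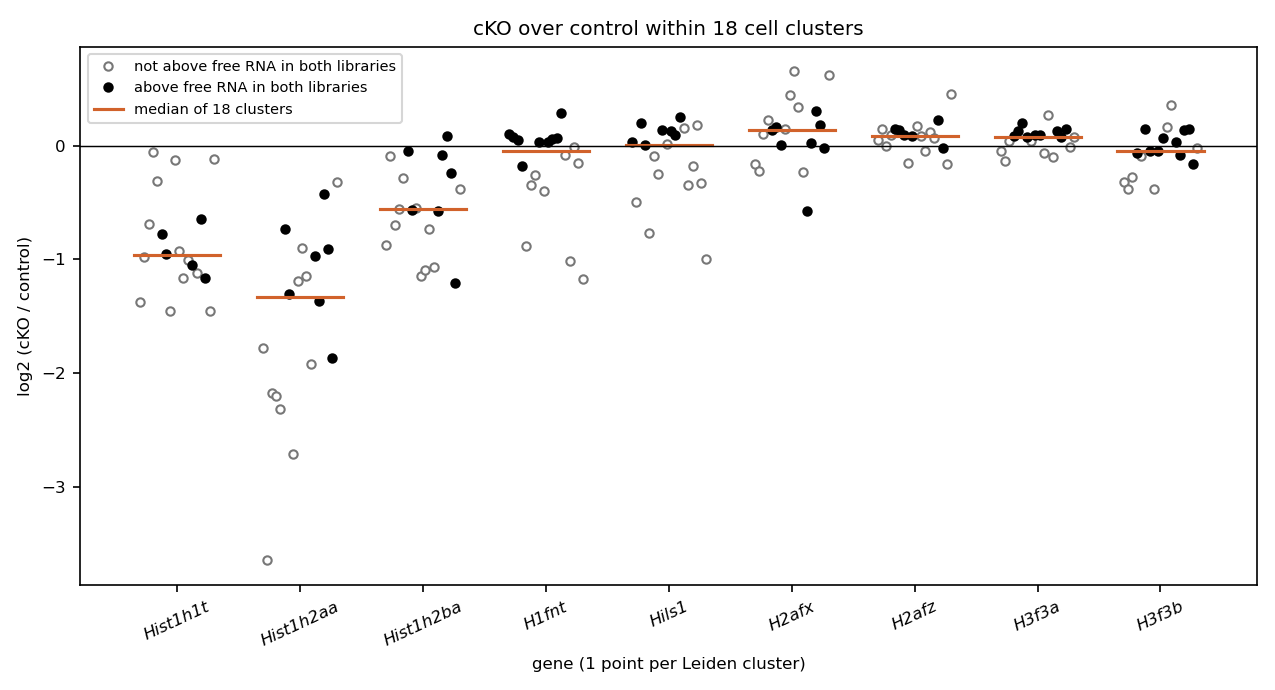
Log2 ratio of cKO to control within each of 18 clusters for each gene (1 point per cluster); filled points exceed the level in free RNA in both libraries, open points do not, and the orange line is the median of the 18. All points of Hist1h1t and Hist1h2aa lie below 0.

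Composition within a stage also differed between the libraries, with marker lists in both directions. Markers of meiotic entry (6 genes, none at 0) summed to 346 CPM in control and 315 CPM in cKO spermatogonia, and to 1666 and 1475 CPM at meiotic entry. Markers of elongating spermatids (10 genes, none at 0) summed to 13662 and 9612 CPM in spermatogonia, to 25878 and 10779 CPM at meiotic entry and to 12676 and 8506 CPM in leptotene to zygotene. Higher in cKO were the markers of spermatogonia (12 genes), at 1970 and 2271 CPM in spermatogonia and at 787 and 877 CPM at meiotic entry. Those of round spermatids (8 genes) were lower, at 467 and 331 CPM and at 501 and 341 CPM. Markers of leptotene to zygotene (8 genes) summed to 268 and 206 CPM in spermatogonia and to 853 and 667 CPM at meiotic entry. Markers of pachytene and later cells (8 genes) summed to 373 and 317 CPM in spermatogonia and to 487 and 294 CPM at meiotic entry, beside the -0.80 of Hist1h1t and the -0.76 of Hist1h2aa there. In Sertoli-gated cells (188 and 156), where Kdm6a had 17 and 21 UMIs, Hist1h2aa had 51.8 and 14.5 CPM, above free RNA in both libraries, and a log2 ratio of -1.84 (-2.73 to -1.03). Hist1h1t and Hist1h2ba had -1.12 (-1.81 to -0.46) and -1.53 (-2.38 to -0.75) in those cells. Of those cells 182 sat in the Sertoli cluster and 152 in cluster 11, which was staged as elongating spermatids. In Leydig-gated cells Hist1h2aa had 6.72 CPM in control and 7.95 CPM in cKO and Hist1h1t 14.6 and 13.2 CPM, all under free RNA. The part of cell composition and of free RNA in the ratios was not tested.

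Other histone genes of the same stages were read from a list. Of 8 other linker histone genes, 5 reached 50 UMIs in spermatogonia and 3 were 2-fold lower in cKO, and in leptotene to zygotene again 3 of 5 (medians -1.06 and -1.54), beside 1.61% and 3.55% of all genes. At meiotic entry it was 1 of 5 (median -0.92, beside 7.56%), in pachytene and later cells 0 of 4 (median -0.06), in round spermatids 1 of 3 (median 0.22, beside 1.12%) and in elongating spermatids 2 of 5 (median -0.74, beside 1.06%), with none higher in any stage. The 1 at meiotic entry was Hist1h1c (-1.02), the 1 in round spermatids Hist1h1a, at 3.61 and 0.63 CPM, and the 2 in elongating spermatids Hist1h1c (-1.26) and Hist1h1e (-1.08). Hist1h1a, a replication-dependent linker histone gene, had 1986 and 1024 CPM at meiotic entry. There Hist1h1e had 487 and 257 CPM, Hist1h1c 384 and 189 CPM, and H1fx, which is made outside S phase too, 521 and 436 CPM. In leptotene to zygotene Hist1h1a had 110 and 37.8 CPM, or -1.54 (-1.86 to -1.22), where the markers of meiotic entry also stood lower as given above, while H1fx had 233 and 220 CPM. The 3 past 2-fold in both spermatogonia and leptotene to zygotene were Hist1h1a, Hist1h1c and Hist1h1e, whereas H1fx had a log2 ratio of -0.28 (-0.52 to -0.04) in spermatogonia and -0.08 (-0.23 to 0.06) in leptotene to zygotene. All 5 genes with enough UMIs stood below 0 in both of these stages.

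Of 14 other core histone genes, 12 were in the table. The list holds variants together with Hist1h4c, a replication-dependent gene of canonical H4, and the H2B genes Hist1h2bc and Hist1h2be. At meiotic entry 2 of the 4 with enough UMIs were 2-fold lower and 1 was higher (beside 7.56% and 1.3% of all genes), in elongating spermatids 1 of 9 in each direction (beside 1.06% and 0.106%), and none elsewhere. Those at meiotic entry were H2al2a (-1.56), Hist1h4c (-1.14) and Cenpa (1.40), and those in elongating spermatids Hist1h4c (-1.20) and Cenpa (1.03); some of them fall outside the rule for naming and were picked after their values were seen. At meiotic entry H2al2a had 170 and 57.8 CPM, in a gate where the markers of elongating spermatids summed to 25878 and 10779 CPM, and their part in its ratio was not tested. As a level, H2al2a, a histone of late spermatids that takes part in protamine loading, had 1437 and 1667 CPM in elongating spermatids. H2afv, a second H2A.Z gene, had 434 and 485 CPM in spermatogonia, where Cenpa, the H3 of centromeres, had 194 and 228 CPM. H2afy, which encodes macroH2A, had 208 and 259 CPM in leptotene to zygotene.

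None of the 25 histone chaperone and exchange genes was past 2-fold in any stage, with 19 to 25 of them measured per stage. Since 0.804% to 7.56% of all genes were 2-fold lower and 0.0712% to 1.3% higher per stage, a count of 0 lies near that share and is not a result about these genes. Nasp, a chaperone of H1 and H3, had 2548 and 2296 CPM in pachytene and later cells, where Znhit1, a subunit of the complex that loads H2A.Z, had 733 and 778 CPM. Npm1 had 1787 and 1920 CPM and Nap1l1 553 and 571 CPM in spermatogonia. Of 10 genes that act in histone removal, 2 of the 9 measured were 2-fold lower in leptotene to zygotene (beside 3.55% of all genes), Chd5 at -1.29 and Cdyl at -1.05, and none in the other stages. Both had a higher level in elongating spermatids than in leptotene to zygotene, and the markers of elongating spermatids summed to 12676 and 8506 CPM in the latter gate. Their part in the 2 ratios was not tested. Brdt, a reader of acetylated histones, had 360 and 345 CPM there and Mdc1, which spreads H2A.X phosphorylation, 330 and 240 CPM. Cdyl had 350 and 264 CPM and Chd5, a remodeller of spermatids, 283 and 228 CPM in elongating spermatids.

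Chromatin of cKIT+ spermatogonia was read at the 8 promoter windows in the authors' peak lists. A total of 5 members (Hist1h2aa, Hist1h2ba, H2afz, H3f3a and H3f3b) overlapped an ATAC-seq peak in 5 of 5 libraries, as did 32.9% of 17492 promoters. Hist1h1t, H1fnt and Hils1 overlapped none, as did 40.7%. Within 1000 bases of the window, a peak was listed for H1fnt in 2 of 3 cKO and 0 of 2 control libraries and for Hist1h1t in 1 of 3 and 0 of 2, where 4.18% of promoters had one in any cKO and no control library. The 2 testis core histone genes share 1 peak, from position 23933331 to 23934847 of chromosome 13 where it was widest (cKO replicate 3). Its fold enrichment was 5.04 and 5.25 in the control libraries and 5.37, 5.53 and 5.16 in the cKO libraries, a per-peak value of the authors that was not compared between lists. H3f3b had 4.94 and 6.18 in control and 6.66, 7.33 and 5.71 in cKO. H2afx, for which the whole gene span on chromosome 9 (44334715 to 44336077) was searched, overlapped no peak of either assay. The bases before its start were not searched, and no share over all gene spans was computed. Its absence of peaks is therefore not comparable with the promoter windows of the other 8 members. The number of peaks per ATAC-seq list ran from 14635 to 40497, so absence from a list was not read as a change.

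H3K27me3 peaks overlapped 2 of 8 members in any of the 5 libraries, beside 16.1% of promoters: H1fnt in control replicate 1 and Hils1 in control replicate 2. Neither was in the other control library, in any of the 3 cKO libraries or in the IgG list. A peak in 1 control library and in no cKO library was listed for 2.28% of the 17492 promoters, one in any control and no cKO library for 2.9%, and one in any cKO and no control library for 1.8%. A pair of cKO lists reached fewer promoters (5.79% and 8.15%) than either control list (10.6% and 12.9%), and the other cKO list 12.0%, so here too absence from a list was not read as a change. Hist1h1t, Hist1h2aa and Hist1h2ba had no H3K27me3 peak at the promoter in any of the 2 control or 3 cKO libraries, and none within 1000 bases of the window. The H3K27me3 lists held 11118 to 18494 peaks and the IgG list 1449.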

How the data were processed

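The authors deposited unfiltered Cell Ranger matrices of UMI counts, per the file headers, with no cells selected. The submitters' processing notes list Seurat 4.1.0 and mm10. ATAC-seq lists of the authors (MACS2 layout) give a fold enrichment (a ratio) and the -log10 of q per peak, and CUT&Tag lists of the authors (SEACR) give the summed and highest signal per region, both on mm10. Replicates were called separately, and nothing in the labels says how the animals relate. No label used here gives the version of either caller. Bulk RNA files, with transcript IDs not paired with genes, were not used here.

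Barcodes with at least 3000 UMIs were gated per cell: each fixed marker was scaled from its level in free RNA (barcodes of at most 100 UMIs) to its mean in the top 1% of cells, and the best list had to score at least 0.15, lead by 0.05 and hold 3 markers. A total of 1158 control and 882 cKO barcodes stayed ungated. UMIs were summed per stage and library; the floor for a count of 0 was 3 UMIs. Genes with at least 50 UMIs in a stage entered the background shares. Cells were also clustered without the members (Leiden, 30 principal components, 15 neighbours, resolution 1.0), and Scrublet marked 5.49% and 6.01% of barcodes, which were kept in the main values. Named genes were all members, the 3 most like each, and up to 4 per list with the highest level. Alternatives were other UMI minimums, a filter on genes and mitochondrial UMIs, a wider gate margin, cluster stages, removal of called doublets or free RNA, other scalings, and for peaks a wider window, the stronger part of each list and leaving out each library. Free RNA was subtracted at the share of Leydig-gated cells in every stage. That share was too large wherever the amount subtracted exceeded the level. This was so for H2afz and H3f3b in elongating spermatids and for H1fnt and Hils1 in most stages before spermatids. The ratio and its interval were run on simulated Poisson counts with known changes, the kind of error the interval assumes. Those counts had no spread between animals or libraries, so the run checked the calculation only. Tools were Python 3.11.15, scipy 1.17.1, scanpy 1.11.5 and leidenalg 0.10.2. The members and lists were chosen with earlier results of these data known. Promoter windows (250 bases before to 50 after a start) were matched by gene ID. H2afx had no window.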

Additional observations from a re-analysis of the deposited data

Results flagged for a closer look

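A total of 3 of the 9 genes went in opposite directions in 2 stages, with counting intervals on either side of 0. The share of all genes that meet this rule was not computed. With many UMIs an interval can exclude 0 at a small difference, so the count is a description. The difference between stages was not tested, as each stage has 1 library per genotype. H1fnt had a log2 ratio of cKO to control of -1.16 in leptotene to zygotene, at levels under that of free RNA, and 0.09 in elongating spermatids. H3f3a had -0.08 in elongating spermatids (0.02 relative to the median of all genes) and 0.49 at meiotic entry. Its elongating levels (325 and 306 CPM) lay under free RNA (693 and 692 CPM), as did the control level at meiotic entry, and with free RNA subtracted the ratios were -0.92 and 0.77. H3f3b had -0.15 in spermatogonia and 0.37 at meiotic entry, where the cKO library had 30 cells.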

How the results depend on the processing

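No paired analysis was possible because the results come from no test: each genotype has 1 single-cell library, and peak lists were only overlapped. The count of members with the same highest stage in both libraries was 8 and ran from 7 to 9 over 8 alternatives. The highest stage itself was kept for 13 of 18 gene and library pairs when whole clusters were staged, since no cluster was staged as meiotic entry, which moved Hist1h2aa and control Hist1h2ba to leptotene to zygotene, and Hist1h1t moved to pachytene and later spermatocytes. It was kept for 16 to 18 pairs in the other 7. The count of gene and stage pairs at least 2-fold lower in cKO was 5 of 54 and ran from 5 to 7 over the 6 alternatives that gave all 54, with none higher. It was 4 of 41 with free RNA subtracted, and 6 and 7 of 45 by cluster stages and by the median of clusters. In the main setting 0.804% to 7.56% of all genes were 2-fold lower per stage, and no such share was computed for the alternatives. Of the 5 pairs in the main setting, all but Hist1h2aa in spermatogonia had a level under free RNA. Hist1h2aa in spermatogonia ran from -2.13 to -1.36 and Hist1h1t in pachytene and later spermatocytes from -0.95 to -0.82. Hist1h2aa crossed 2-fold there with a doubled gate margin (-1.14) and by the median of clusters (-1.30), and in elongating spermatids it reached -2.21 without called doublets and -0.98, short of 2-fold, with a higher UMI minimum. With free RNA subtracted, Hist1h1t in round spermatids stood at 0.57 in place of -0.14, from remainders of only 5.34 and 7.90 CPM. H1fnt in leptotene to zygotene had no value with that subtraction. By cluster stages H1fnt fell short of 2-fold, at -0.42, and by the median of clusters at -0.36. In elongating spermatids Hist1h2ba, Hils1, H3f3a and H3f3b changed sign when scaled by the median ratio. Shares of cells above the Leydig share numbered 50 of 108, and 44 or 46 with other thinning, and no such count was made over all genes. ATAC-seq counts were 5 throughout, with or without any 1 library. The H3K27me3 count of 2 became 1 with only the stronger part of each list (Hils1 was lost), and ran from 1 to 2 when 1 library was left out, as each peak rests on control replicate 1 or control replicate 2.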
